A study of Homo sapiens and Mus musculus with 20 samples.

Results

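The 9 genes CS, IDH3A, IDH3B, IDH3G, OGDH, SUCLA2, SUCLG1, FH and MDH2, which encode enzymes of the tricarboxylic acid (TCA) cycle, were followed through 3 treatments of IMR90 cells. The rule names them as core nuclear-encoded enzymes of the cycle. All 9 were among the 11994 genes listed in each of the 3 IMR90 tables. IMR90 is a human lung fibroblast line. The series belongs to a study of histone lactylation and cellular senescence. It measured RNA by sequencing in 12 IMR90 libraries and 8 mouse muscle libraries, and the report concerns the IMR90 libraries.

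Each comparison set 2 treated libraries against 2 untreated libraries of its own experiment, all from wild-type cells. A485, an inhibitor of the acetyltransferase p300, was compared with Control2. MS-275 blocks histone deacetylases of class I and was compared with Control3. Pyruvate, which the study's text describes as added to senescent IMR90 cells, was compared with Control6. The labels give no dose or time for these RNA libraries, and no source used here says that replicates 1 and 2 came from separate cultures, so every p-value measures only the spread between libraries. The IMR90 libraries held 24179065 to 46971227 assigned reads each, and transcripts of the mitochondrial genome made up 2.77% to 6.90% of the listed values. All 8 fibroblast markers examined, among them COL1A1, COL1A2 and DCN, were listed in all 3 experiments, whereas the epithelial marker SFTPC, the endothelial markers PECAM1 and CDH5 and the 4 immune markers were listed in none. Markers of other cell types that were listed (EPCAM, KRT19, VWF, TEK and DES) reached at most 1435 normalized reads, in TEK with pyruvate.

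The TCA cycle runs in the mitochondrial matrix, where it oxidizes the acetyl group of acetyl-CoA and passes electrons to the respiratory chain. Citrate synthase (CS) joins acetyl-CoA to oxaloacetate, isocitrate dehydrogenase and 2-oxoglutarate dehydrogenase release carbon dioxide and make NADH, succinate-CoA ligase makes ATP or GTP, fumarate hydratase (FH) turns fumarate into malate, and malate dehydrogenase (MDH2) restores oxaloacetate. Pyruvate made by glycolysis feeds the cycle through pyruvate dehydrogenase, and the same pyruvate can instead be reduced to lactate. Fibroblasts keep the cycle active for energy and for building blocks of lipids and amino acids.

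The positions below are those of GENCODE release 44 on hg38, and the transcript lengths and GC contents are those of the canonical transcript. CS lies at chr12:56271699-56300391 on the minus strand. NAD-dependent isocitrate dehydrogenase is built from IDH3A (chr15:78131498-78171945, plus strand), which carries the catalytic alpha subunit, and from the beta and gamma subunits IDH3B (chr20:2658395-2664219, minus strand) and IDH3G (chrX:153785766-153794512, minus strand). OGDH (chr7:44606572-44709066, plus strand) encodes the E1 component of 2-oxoglutarate dehydrogenase. SUCLG1 (chr2:84423528-84460045, minus strand) encodes the alpha subunit of succinate-CoA ligase, and SUCLA2 (chr13:47745736-48037968, minus strand) encodes the beta subunit of its ADP-forming version. FH lies at chr1:241497511-241519799 on the minus strand and MDH2 at chr7:76048051-76067508 on the plus strand. In order of transcript GC content the genes ran from SUCLA2 (38.4%), IDH3A (43.4%), FH (43.6%), SUCLG1 (46.9%) and CS (48.4%) to MDH2 (52.1%), IDH3B (54.6%), OGDH (56.3%) and IDH3G (59.0%).

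The strand setting of the read counting is not given in the sources used here, and some exons overlap genes of the other strand. IDH3A shares 2608 exon bases with ACSBG1, which was listed in no IMR90 table, and IDH3G shares 267 exon bases with the strongly expressed SSR4. Pseudogenes bearing the gene's own name are annotated for CS (2), SUCLA2 (3) and FH (1), and reads from these copies could have been split or dropped.

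The 3 IDH3 subunits are related proteins whose coding sequences differ in base composition, which matters below because the pyruvate comparison varied with GC content. The coding sequence was 47.3% GC in IDH3A, 55.0% in IDH3B and 59.0% in IDH3G, and at the third codon position it was 46.7%, 67.0% and 77.9%. In a pairwise alignment, IDH3A and IDH3B matched at 58.1% of aligned coding bases and IDH3A and IDH3G at 56.8%. The 90 coding bases best conserved between all 3 are shown, with capitals at the 37 positions where the 3 genes are not all alike, of which 22 are at the third codon position. They span exons 6 and 7 of IDH3A (chr15:78162324-78163552), exons 7 and 8 of IDH3B (chr20:2660320-2660500) and exons 8 and 9 of IDH3G (chrX:153787108-153787507), each written 5′ to 3′ on the coding strand.
IDH3A: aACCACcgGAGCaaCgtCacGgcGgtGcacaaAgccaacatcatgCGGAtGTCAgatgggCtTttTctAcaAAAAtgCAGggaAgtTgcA
IDH3B: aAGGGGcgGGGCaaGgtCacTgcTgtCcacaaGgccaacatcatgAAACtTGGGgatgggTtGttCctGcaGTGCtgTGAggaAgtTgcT
IDH3G: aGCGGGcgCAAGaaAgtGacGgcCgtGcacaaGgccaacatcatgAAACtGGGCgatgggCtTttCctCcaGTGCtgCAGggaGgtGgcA

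Promoter sequences were available from RefSeq (GRCh38.p14) for 8 of the 9 genes, all but OGDH. The 250 bases before the start of transcription were searched on both strands for 4 letter patterns tied to regulators of mitochondrial and housekeeping genes. These were TGCGCA (the inner part of the site bound by nuclear respiratory factor NRF1), CCGGAAG (an ETS core of the kind bound by GABPA), GGGCGG (an SP1 box) and TGACGTCA (a cAMP response element). GGGCGG was found in CS, IDH3A, SUCLA2 and FH, and in 42.6% of all 35116 promoter windows. CCGGAAG was found in IDH3B, IDH3G and MDH2, and in 8.52% of all windows. TGCGCA was found in IDH3B and IDH3G, and in 6.89% of all windows, and TGACGTCA was found in none of the 8, against 1.65% of all windows. The patterns did not overlap each other in these windows, and a match describes letters only. Windows are shown for 2 genes with GGGCGG (IDH3A and SUCLA2) and 2 with CCGGAAG (IDH3G and MDH2), as examples of the 2 patterns found in most members. No relation between a pattern and the direction of change was tested, and the genes holding GGGCGG were higher (IDH3A, SUCLA2, FH) and lower (CS) with pyruvate. They lie at chr15:78149112-78149361 (IDH3A, plus strand), chr13:48001274-48001523 (SUCLA2, minus strand), chrX:153794376-153794625 (IDH3G, minus strand) and chr7:76047856-76048105 (MDH2, plus strand), with the patterns matched on either strand in capitals.
IDH3A: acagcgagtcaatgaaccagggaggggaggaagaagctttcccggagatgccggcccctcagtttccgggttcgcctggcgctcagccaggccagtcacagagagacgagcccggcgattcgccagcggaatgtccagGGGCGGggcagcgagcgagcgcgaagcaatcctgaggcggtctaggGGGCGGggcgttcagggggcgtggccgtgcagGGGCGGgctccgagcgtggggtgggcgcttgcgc
SUCLA2: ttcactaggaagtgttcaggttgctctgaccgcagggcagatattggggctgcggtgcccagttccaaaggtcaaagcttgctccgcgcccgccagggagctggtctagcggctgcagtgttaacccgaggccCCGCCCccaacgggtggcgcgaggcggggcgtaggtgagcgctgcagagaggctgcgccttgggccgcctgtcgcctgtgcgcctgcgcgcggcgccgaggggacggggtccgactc
IDH3G: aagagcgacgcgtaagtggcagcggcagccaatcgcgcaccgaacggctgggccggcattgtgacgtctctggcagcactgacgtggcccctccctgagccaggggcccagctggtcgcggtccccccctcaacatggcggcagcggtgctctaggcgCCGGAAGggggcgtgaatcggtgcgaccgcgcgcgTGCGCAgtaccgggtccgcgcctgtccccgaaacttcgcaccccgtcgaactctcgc
MDH2: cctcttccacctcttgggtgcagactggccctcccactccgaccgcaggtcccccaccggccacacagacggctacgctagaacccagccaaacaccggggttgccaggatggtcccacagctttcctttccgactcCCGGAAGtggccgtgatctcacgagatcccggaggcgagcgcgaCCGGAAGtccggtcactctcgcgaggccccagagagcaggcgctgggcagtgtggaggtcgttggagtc

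Values are the deposited normalized read counts, which are reads divided by a scaling factor for each library. Differences were tested with limma on log2(value + 1), with Benjamini-Hochberg adjustment over all genes with a mean of at least 10 in that experiment. A gene passed the test at an adjusted p under 0.05 and was called when its log2 difference was also beyond 1. Fold changes on this scale slightly understate the change of genes with low values.

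**Figure D1:**
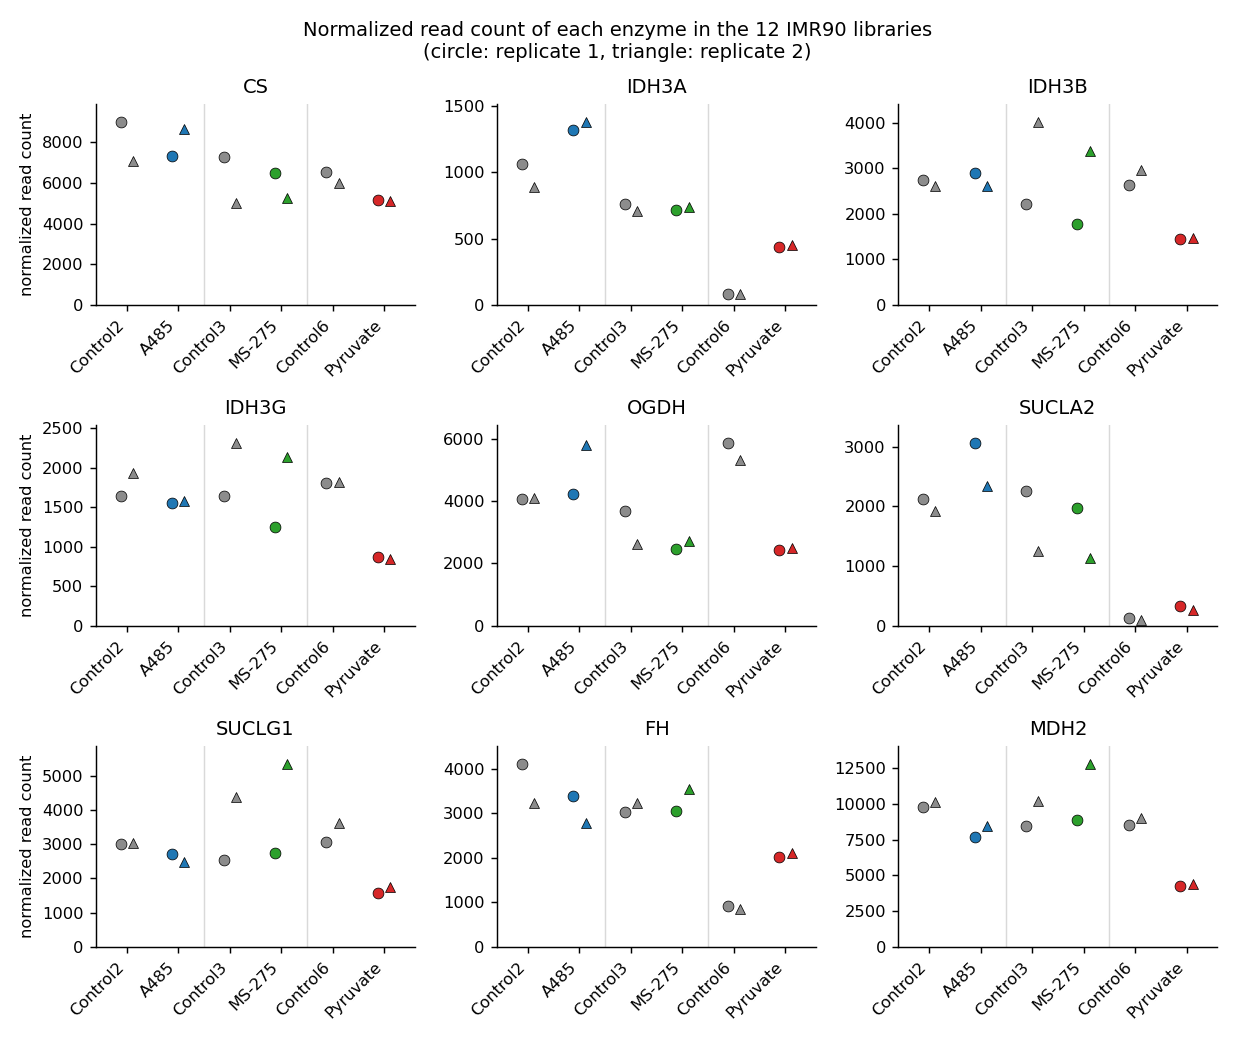
Normalized read counts of the 9 enzymes in the 12 IMR90 libraries, with 1 panel per gene, grey for untreated libraries, color for treated libraries, circles for replicate 1 and triangles for replicate 2. The 3 experiments were normalized separately, so points are comparable between the vertical lines only. In the pyruvate experiment the groups of all 9 genes lie apart, with IDH3A, SUCLA2 and FH higher and the other 6 lower after pyruvate.

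The largest differences were seen with pyruvate, where all 9 enzymes differed from Control6, 3 upward and 6 downward. IDH3A, SUCLA2 and FH were higher, and CS, IDH3B, IDH3G, OGDH, SUCLG1 and MDH2 were lower. Of the 9, 7 were called. This must be read against the background of that comparison, in which 80.9% of 12013 genes passed the test (40.6% upward and 40.2% downward), 54.1% were called and 90.5% had groups that did not overlap. The direction of CS turned under 2 other scalings, and those of IDH3G and SUCLA2 turned once the GC and length trend was removed, as described below.

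Among the subunits of isocitrate dehydrogenase, the catalytic subunit moved against its partners on the deposited scaling. With the GC and length trend removed IDH3A was at 1.11, while IDH3B at -0.045 and IDH3G at 0.0048 did not pass. IDH3A was at 81.5 and 84.6 normalized reads in Control6 and at 437 and 452 with pyruvate. Both treated libraries were far above both controls, a 5.30-fold difference (log2 2.41 ± 0.19, SE, n = 2 against 2, adjusted p = 3.27e-07). IDH3B was at 2628 and 2962 in Control6 and at 1446 and 1481 with pyruvate, a log2 difference of -0.93 ± 0.08 (adjusted p = 9.88e-07), which passed the test without being called. IDH3G was at 1812 and 1814 in Control6 and at 876 and 843 with pyruvate, a log2 difference of -1.08 ± 0.09 (adjusted p = 4.11e-07). Counted per kilobase of transcript, IDH3A made up 0.648% and 0.628% of the 3 subunits in Control6 and 6.30% and 6.50% with pyruvate. In the other 2 experiments the same share lay between 3.84% (Control3 replicate 2) and 10.5% (A485 replicate 2), so the Control6 libraries were the lowest of the 12 on this measure.

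Succinate-CoA ligase showed the same kind of split. SUCLA2, the ADP-forming beta subunit, was at 125 and 90.1 in Control6 and at 333 and 267 with pyruvate, a 2.80-fold difference (log2 1.48 ± 0.23, adjusted p = 1.01e-04). SUCLG1, the alpha subunit that either beta subunit needs, was at 3057 and 3631 in Control6 and at 1584 and 1740 with pyruvate, a 2.01-fold lower level (log2 -1.004 ± 0.09, adjusted p = 1.39e-06). The GTP-forming beta subunit SUCLG2, from the list of the remaining cycle genes, was at 423 and 436 in Control6 and at 2179 and 2159 with pyruvate (log2 2.33 ± 0.10, adjusted p = 1.87e-09). On this scale both beta subunits thus rose while the alpha subunit fell, and with the GC and length trend removed SUCLG2 was at 0.94 and SUCLA2 at -0.035. Per kilobase, SUCLA2 made up 2.40% and 1.47% of SUCLA2 plus SUCLG1 in Control6 and 11.2% and 8.45% with pyruvate, against 11.4% to 40.3% in the libraries of the other experiments.

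The other 4 genes split 1 upward and 3 downward. OGDH, which sets the rate of 2-oxoglutarate oxidation, was at 5869 and 5308 in Control6 and at 2446 and 2501 with pyruvate, a 2.26-fold lower level (log2 -1.17 ± 0.07, adjusted p = 3.93e-08). FH was at 916 and 838 in Control6 and at 2024 and 2094 with pyruvate, a 2.35-fold higher level (log2 1.23 ± 0.09, adjusted p = 1.62e-07). FH was the only member besides IDH3A and SUCLA2 in which both pyruvate libraries lay above both controls. MDH2, the most abundant of the 9 per kilobase in every control group, was at 8547 and 9004 in Control6 and at 4253 and 4388 with pyruvate, a 2.03-fold lower level (log2 -1.02 ± 0.06, adjusted p = 3.27e-08). CS, the entry enzyme often used to gauge mitochondrial content, was at 6547 and 5990 in Control6 and at 5173 and 5130 with pyruvate, with a log2 difference of -0.28 ± 0.07 (adjusted p = 0.00187). CS had the smallest difference of the 9, and it came to 0.029 when libraries were scaled to equal totals and to 0.067 after quantile normalization. Scaling to equal totals raised the median difference of all genes to 0.30, and relative to that median CS stayed lower.

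**Figure D2:**
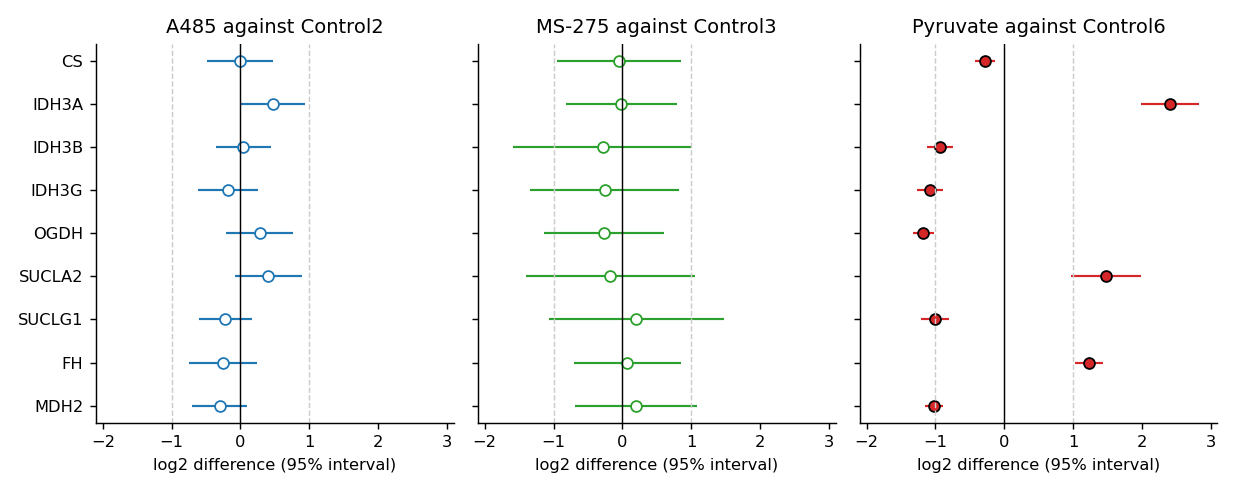
Log2 difference of each enzyme against the untreated libraries of the same experiment, with 95% intervals from limma (2 against 2 libraries). Filled points passed the test at an adjusted p under 0.05 and open points did not, and dashed lines mark a log2 difference of 1 in either direction. All 9 points are filled for pyruvate and none for A485 or MS-275, but the direction of CS turns with equal totals or quantile scaling, and those of IDH3G and SUCLA2 turn when the GC trend is removed.

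The split between rising and falling enzymes followed the base composition of their transcripts. The 3 genes that were higher with pyruvate were the 3 with the lowest GC content (38.4% to 43.6%), and the 6 that were lower had the highest (46.9% to 59.0%). The same pattern ran through the whole experiment. Across 11888 genes with a known GC content, the pyruvate difference fell with GC (Spearman rho = -0.72, across genes of the same 4 libraries), against -0.11 for A485 and -0.02 for MS-275. When genes were put in 10 equal groups by GC, the group lowest in GC had a median log2 difference of 1.72 and the group highest in GC had -1.21.

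Set beside genes of like composition, the members stood at different distances. IDH3A, at 2.41, was above the median of 1.502 of its GC group, while SUCLA2, at 1.48, was below the 1.72 of its own. SUCLG1 was at -1.004 where its GC group had a median of 0.11. IDH3G, at -1.08, was close to its group's -1.04, and OGDH, at -1.17, was below its group's -0.83. CS, at -0.28, was below the 0.11 of its group, and FH, at 1.23, was above the 0.87 of its own. MDH2, at -1.02, and IDH3B, at -0.93, were both below the -0.69 of their group.

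When a smooth trend in GC content and transcript length was subtracted from every library, 6 of the 9 enzymes still passed the test and 2 were called, against 66.3% and 28.9% of 11888 genes. IDH3A remained higher, at 1.11 ± 0.19 (adjusted p = 3.72e-04), and SUCLG1 remained lower, at -1.09 ± 0.08 (adjusted p = 3.52e-07). OGDH at -0.58, MDH2 at -0.34, FH at 0.35 and CS at -0.23 kept their direction and passed. The differences of IDH3B (-0.045, adjusted p = 0.575), IDH3G (0.0048, adjusted p = 0.960) and SUCLA2 (-0.035, adjusted p = 0.908) did not pass. What part base composition had in the unadjusted values was not tested.

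**Figure D3:**
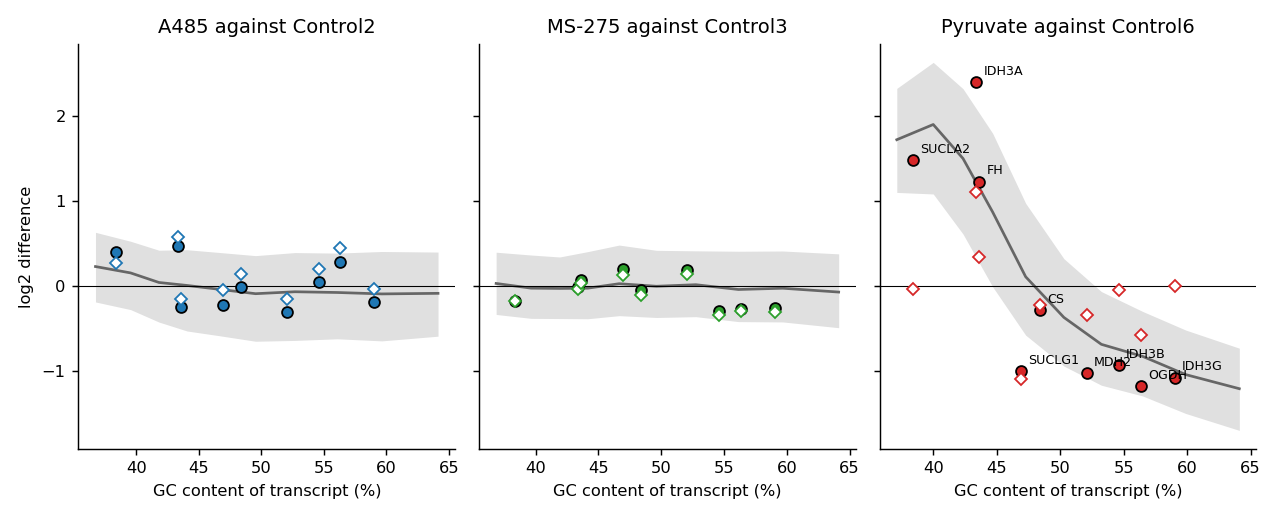
Log2 difference of each enzyme against the GC content of its transcript in the 3 comparisons. Filled circles are the differences as tested and open diamonds those after removal of the GC and length trend, and the grey line and band are the median and the range between the quartiles of all genes in 10 equal groups by GC. From the lowest to the highest GC group the grey line goes from 1.72 to -1.21 with pyruvate. It goes from 0.23 to -0.08 with A485 and from 0.03 to -0.07 with MS-275. With pyruvate the diamonds of IDH3G and SUCLA2 lie at 0.0048 and -0.035, on the other side of 0 from their circles.

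The level of the same enzymes in the untreated libraries differed between experiments. Given per kilobase of transcript and per 1000000 listed reads, from tables normalized separately and with no test, IDH3A was at 5.29 in Control2, 4.30 in Control3, 0.689 in Control6 and 4.57 with pyruvate (means of 2). SUCLA2 was at 21.1, 20.0 and 1.72 in the same 3 controls and at 5.97 with pyruvate, and FH was at 45.4, 42.0 and 16.6 and at 48.3 with pyruvate. Thus Control6 was the lowest group for these 3 low-GC genes. For IDH3A and FH the pyruvate libraries were near Control2 and Control3, while for SUCLA2 they too stood far below both. For OGDH Control6 was the highest group, at 21.4, 18.0 and 45.1 in the controls and 24.8 with pyruvate. Over 11864 genes, the log2 level in Control6 relative to the mean of Control2 and Control3 rose with GC content (Spearman rho = 0.72), and the same relation was weaker in the pyruvate libraries (0.21). In the tenth of genes lowest in GC the median was -2.87 in Control6 and -1.08 in the pyruvate libraries. The label of Control6 gives it no treatment, as for the other controls. Mitochondrially encoded transcripts made up 6.69% and 6.68% of the Control6 values and 4.68% and 4.72% with pyruvate. Their part in the results was not tested.

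By level per kilobase, MDH2 was the highest of the 9 in all 3 control groups and IDH3A the lowest. In Control2 MDH2 was at 101 ± 5.18 (SD, n = 2) and CS followed at 61.2 ± 14.7, but the ranges of CS (50.8 to 71.5), SUCLG1 (49.9 to 54.8) and FH (37.7 to 53.1) overlapped, so their order is not set by 2 libraries. OGDH at 21.4 ± 1.42 and SUCLA2 at 21.1 ± 2.99 did not differ beyond their spread either.

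The genes around these enzymes were counted from 4 lists with 54 genes in all. With pyruvate, 80.9% of all genes tested passed and 54.1% were called, against 66.3% and 28.9% with the GC and length trend removed. Of the 8 other cycle genes, 3 were higher with pyruvate and 5 were lower, with a median log2 difference of -0.53 beside -0.01 for all genes tested. Called ones included SUCLG2 (above), SDHC (5894 and 6525 against 3098 and 3002, log2 -1.02, adjusted p = 1.01e-07) and SDHD (198 and 250 against 886 and 960, log2 2.05, adjusted p = 1.58e-07). SDHC and SDHD, the membrane anchors of the same succinate dehydrogenase complex, thus moved in opposite directions. With the trend removed, 2 of the 8 were higher and 4 lower. SDHC was then at -1.12, and SDHD at 0.56 passed without being called.

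Of 13 genes for the entry of pyruvate into mitochondria, 6 were higher with pyruvate and 5 lower, where 80.9% of all genes tested passed. The pyruvate dehydrogenase kinase PDK1 rose (log2 2.68, adjusted p = 2.60e-09) while the kinase PDK2 fell (log2 -2.25, adjusted p = 4.23e-08). PDP1, the phosphatase that reactivates pyruvate dehydrogenase, rose (log2 3.41, adjusted p = 1.11e-08), and MPC2, part of the mitochondrial pyruvate carrier, fell from 1848 and 2492 to 602 and 464 (log2 -2.02, adjusted p = 2.33e-07). After removal of the trend the balance of this list moved, with 2 genes higher and 10 lower. MPC2 was then at -3.16, PDP1 at 1.56 and PDK2 at -1.39, and PDK1 at 0.61 passed without being called.

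Of 15 genes for parallel and filling reactions, 6 were higher with pyruvate and 8 lower, where 80.9% of all genes tested passed. The cytosolic malate dehydrogenase MDH1 rose (log2 2.70, adjusted p = 7.62e-10) where the mitochondrial MDH2 fell, and the cytosolic, NADP-dependent IDH1 rose (log2 1.33, adjusted p = 1.70e-08). The malic enzyme ME2 rose (log2 2.25, adjusted p = 2.68e-08), and the citrate carrier SLC25A1 fell (log2 -1.73, adjusted p = 1.86e-09). With the trend removed 2 genes of this list were higher and 8 lower. MDH1 was then at 1.696 (adjusted p = 1.44e-08) and SLC25A1 at -0.44 (adjusted p = 3.46e-05), whereas IDH1 was at 0.05 and ME2 at 0.18 and neither passed.

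Of 17 listed genes of mitochondrial content and biogenesis, 8 were higher and 7 lower, led by the chaperones HSPD1 (log2 2.73, adjusted p = 6.88e-11) and HSPA9 (log2 2.00, adjusted p = 2.06e-10) and the import receptors TOMM20 (log2 2.19, adjusted p = 8.07e-10) and TOMM70 (log2 2.04, adjusted p = 2.59e-09). Of these 17 genes 7 were called higher and 3 lower, where 54.1% of all genes tested were called. The 3 lower ones, named after their values were seen, were the nuclear receptor ESRRA (log2 -1.56), the mitochondrial RNA polymerase POLRMT (log2 -1.32) and the protease subunit CLPP (log2 -1.28). With the trend removed 9 genes were higher and 6 lower. HSPD1 stayed called at 1.43 (adjusted p = 3.40e-09), while TOMM20 at 0.54, HSPA9 at 0.39 and TOMM70 at 0.30 passed without being called, as did ESRRA at -0.33, POLRMT at -0.29 and CLPP at -0.38.

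With A485, none of the 9 enzymes passed the test in limma, none had an unadjusted p under 0.05, and edgeR and DESeq2 on the recovered reads also gave 0 of 9. In the same comparison 12.6% of 16084 genes passed and 10.4% were called. The log2 differences of the 9 ran from -0.30 to 0.47 with a median of -0.01, beside 0.01 for all genes. The treated and control values did not overlap for 6 of the 9, which is near the 61% of all genes for which this held.

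IDH3A came nearest to the threshold. It was at 1064 and 891 in Control2 and at 1316 and 1380 with A485, a log2 difference of 0.47 (95% interval 0.00 to 0.94, adjusted p = 0.164). Both treated libraries lay above both controls. Its partner subunits had smaller differences, with IDH3B at 2734 and 2622 against 2901 and 2623 (log2 0.04) and IDH3G at 1643 and 1930 against 1559 and 1577 (log2 -0.18). SUCLA2 was at 2120 and 1926 in Control2 and at 3061 and 2340 with A485 (log2 0.41, 95% interval -0.08 to 0.89, adjusted p = 0.226). SUCLG1 was at 3006 and 3042 in Control2 and at 2724 and 2481 with A485 (log2 -0.22, adjusted p = 0.408). The values of IDH3A and SUCLA2 were thus above control and those of IDH3B, IDH3G and SUCLG1 near or below it, though no difference passed. The other beta subunit, SUCLG2, was at 3667 and 3678 in Control2 and at 3801 and 3087 with A485 (log2 -0.10, adjusted p = 0.741).

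OGDH was at 4057 and 4101 in Control2 and at 4236 and 5797 with A485 (log2 0.28, adjusted p = 0.395), and the difference came mostly from replicate 2. FH was at 4106 and 3237 against 3392 and 2770 (log2 -0.25, adjusted p = 0.448), with overlapping groups. MDH2 was at 9794 and 10114 against 7664 and 8483 (log2 -0.30, 95% interval -0.70 to 0.09, adjusted p = 0.263), with both treated libraries below both controls. CS was at 9008 and 7105 against 7319 and 8637 (log2 -0.01, 95% interval -0.49 to 0.47), and its treated values lay within the range of its controls. With the deposited scaling none of the 9 intervals reached a log2 difference of 1 in either direction. With equal totals those of IDH3A (to 1.40), SUCLA2 (to 1.35) and OGDH (to 1.13) did, and with the GC and length trend removed that of IDH3A did (to 1.03).

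The scaling bears on the A485 directions. Scaling every library to the same total shifted the median difference over all genes to 0.40, and IDH3A (0.86, adjusted p = 0.0354), SUCLA2 (0.80, adjusted p = 0.0476) and OGDH (0.67, adjusted p = 0.0433) passed, while CS, IDH3G, SUCLG1, FH and MDH2 turned positive without passing. Relative to that median all 5 stayed below 0. Over all 16084 genes 3868 passed with equal totals, against 2032 with the deposited scaling. Fibroblast markers fell in the same comparison: 7 of 8 passed and were called, with a median log2 difference of -1.96, and their summed value was 1357450 and 1511440 in Control2 and 428267 and 502039 with A485. Their part in the values of the enzymes was not tested.

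Some neighbouring genes passed the test with A485, where 12.6% of 16084 genes passed and 10.4% were called with the deposited scaling. The count over all genes with equal totals is given in the preceding paragraph, and none is given here with the trend alone removed. None of the 8 other cycle genes passed with the deposited scaling (DLD was at 0.30, adjusted p = 0.275). With equal totals DLD passed (0.69, adjusted p = 0.0392). Of the 13 pyruvate entry genes, PDK3, a kinase that switches off pyruvate dehydrogenase, rose from 183 and 214 to 597 and 531 (log2 1.503, adjusted p = 0.0208). None passed downward with the deposited scaling, where PDK1 was at 1366 and 3642 against 673 and 656 (log2 -1.74, adjusted p = 0.0550). With equal totals 4 of the 13 rose and 1 fell (PDK1, -1.35, adjusted p = 0.0456). With the GC and length trend removed 2 rose and none fell. Of 15 genes for parallel and filling reactions, 5 fell and none rose with the deposited scaling. With equal totals 1 fell (ACO1, -0.80, adjusted p = 0.0182) and 1 rose (MDH1, 0.85, adjusted p = 0.0231), and with the GC and length trend removed 4 fell and 1 rose. Those called were the cytosolic aconitase ACO1, from 11044 and 12537 to 4780 and 5568 (log2 -1.19, adjusted p = 0.0126), and the mitochondrial NADP-dependent isocitrate dehydrogenase IDH2, from 3615 and 3702 to 1904 and 1598 (log2 -1.07, adjusted p = 0.0168). IDH2 was at -0.68 (adjusted p = 0.0507) with equal totals and at -0.93 (adjusted p = 0.0213) with the trend removed. Of 18 genes of mitochondrial content and biogenesis 1 rose and 3 fell, against 2 and 0 with equal totals. The one that rose was GABPA, the ETS factor named above (1604 and 1911 against 3515 and 3418, log2 0.99, adjusted p = 0.0212), and the outer membrane channel VDAC1 fell (log2 -0.88, adjusted p = 0.0213), a difference of -0.49 (adjusted p = 0.0760) with equal totals.

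With MS-275, 0 of the 9 enzymes passed the test and 0% of 15883 genes did so in limma without a term for replicate number, while 1730 genes and none of the 9 had an unadjusted p under 0.05. With such a term 6245 genes and 0 of the 9 passed, though no label ties the replicates together. With the GC and length trend also removed, IDH3B and IDH3G passed, among many other genes, as counted in the closing section. The log2 differences of the 9 ran from -0.29 to 0.20 with a median of -0.05, beside -0.01 for all genes. All 9 had overlapping groups, where 38.9% of all genes did not overlap. The 95% intervals were wide, for example -1.58 to 1.01 for IDH3B and -0.82 to 0.79 for IDH3A, so a doubling was inside the interval of several enzymes.

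The libraries of this experiment differed by replicate number more than by treatment. IDH3B was at 2221 (replicate 1) and 4020 (replicate 2) in Control3 and at 1778 and 3373 with MS-275. SUCLG1 was at 2544 and 4373 in Control3 and at 2754 and 5353 with MS-275, and SUCLA2 was at 2260 and 1259 and at 1964 and 1141. In 7 of the 9 enzymes replicate 2 differed from replicate 1 in the same direction in both groups, upward in 5 and downward in 2. The median size of the difference between replicates was 0.51 on the log2 scale, against 0.19 for the difference between treatments. Across genes the replicate difference rose with GC content in both groups (Spearman rho = 0.37 in Control3 and 0.46 with MS-275).

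Within replicate number, 6 of the 9 enzymes had differences of the same sign in both pairs. These differences are given as a description, since no label ties the replicates together. IDH3B was lower with MS-275 by log2 values of -0.32 and -0.25 in pairs 1 and 2, IDH3G by -0.39 and -0.12, and SUCLA2 by -0.20 and -0.14. SUCLG1 was higher by 0.11 and 0.29, MDH2 (8442 and 10234 against 8838 and 12808) by 0.07 and 0.32, and FH (3031 and 3237 against 3056 and 3543) by 0.01 and 0.13. The signs differed between pairs for CS (7264 and 5035 against 6489 and 5257), with -0.16 and 0.06, for IDH3A (759 and 707 against 717 and 735), with -0.08 and 0.06, and for OGDH (3690 and 2611 against 2463 and 2714), with -0.58 and 0.06. IDH3A was the steadiest of the 9, with all 4 libraries between 707 and 759. IDH3G was at 1639 and 2315 in Control3 and 1247 and 2132 with MS-275.

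**Figure D4:**
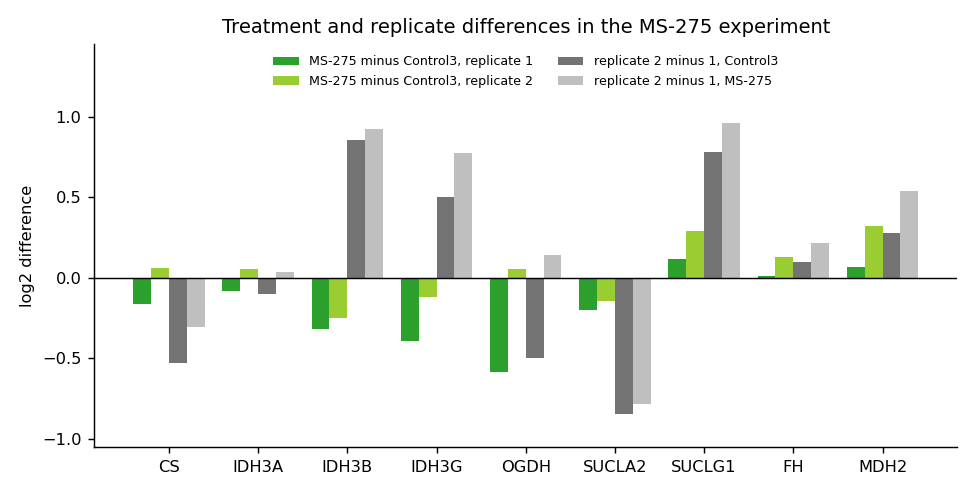
Log2 differences of the 9 enzymes in the MS-275 experiment. Green bars are MS-275 minus Control3 within replicate 1 (dark) and replicate 2 (light), and grey bars are replicate 2 minus replicate 1 within Control3 (dark) and within MS-275 (light). For CS, IDH3B, IDH3G, SUCLA2 and SUCLG1 both grey bars are longer than both green bars.

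No gene of the 4 lists passed the same test with MS-275 without a term for replicate number. With that term genes of all 4 lists passed, among many other genes, as counted in the closing section. Without it, the nearest by unadjusted p were PDK3 (226 and 215 against 623 and 450, log2 1.26, adjusted p = 0.329) and PDK1 (2004 and 3241 against 4260 and 5431, log2 0.92, adjusted p = 0.502) among the pyruvate entry genes. In the other lists they were SDHD (log2 0.39, adjusted p = 0.864) and DLST (log2 0.27, adjusted p = 0.888), SLC25A10 (log2 -1.42, adjusted p = 0.396) and ME1 (log2 0.69, adjusted p = 0.760), and PPARGC1A and TIMM44. PPARGC1A, a coactivator of mitochondrial biogenesis, was at 38.6 and 5.05 in Control3 and at 205 and 108 with MS-275 (log2 3.27, adjusted p = 0.368), and TIMM44 was at a log2 difference of -0.99 (adjusted p = 0.533). Within replicate number, as a description, PDK3 was higher by log2 values of 1.46 and 1.06, PDK1 by 1.09 and 0.74 and PPARGC1A by 2.38 and 4.17, and TIMM44 was lower, at -0.89 and -1.09.

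Across the 12 libraries, each centred on the controls of its own experiment, the members did not move as a single block. The highest correlations between members were those of SUCLG1 with MDH2 (r = 0.95), IDH3B with IDH3G (r = 0.94) and IDH3G with SUCLG1 (r = 0.90). The lowest were those of SUCLA2 with MDH2 (r = -0.97) and with SUCLG1 (r = -0.96). These values describe 12 libraries that share depth, controls and base composition, and the pyruvate libraries weigh most in them. The mean of the 9 enzymes stayed between -0.20 (MS-275 replicate 1) and 0.07 (MS-275 replicate 2). It was at -0.038 and -0.043 in the pyruvate libraries. Of 9760 other genes with a mean of at least 100 in each experiment, those with the pattern most like that mean were TBP (r = 0.88), HAUS4 (0.88), ERCC3 (0.86), UBA6-DT (0.86) and MCRS1 (0.86). These were picked as the highest r values, and the mean they follow was furthest from 0 in a single library, MS-275 replicate 1.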

How the data were processed

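RNA was measured by bulk RNA sequencing in 12 IMR90 libraries (6 groups of 2) and 8 mouse muscle libraries. The authors made the signal values: per the labels' processing notes and the study's methods, reads were trimmed with Trim Galore 0.6.10, aligned with HISAT2 2.2.1 to hg38 or mm10, sorted with SAMtools 1.7, counted per gene with featureCounts 2.0.6 and normalized with DESeq2 1.34.0. The deposited signal is thus a scaled read count, with 1 size factor for each library and each experiment scaled on its own. Annotation release and strand setting are not given in the sources used here. Undoing that factor gave whole reads within 0.01 for 100% of values, and these set the depths stated in the report.

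The 9 enzymes, the 4 gene lists, the markers and the tests were chosen with earlier results of these data known. All 9 enzymes are given in every IMR90 library. Of each list, called members are named, at most 4 by adjusted p, and otherwise the 2 with the smallest p. The values of 1 list gene that this rule names are not reported here.

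limma 3.58.1 (R 4.3.3, eBayes with trend) was fitted to log2(value + 1) of the 4 libraries of each experiment, for genes with a mean of at least 10, and was checked on simulated data. With 2 against 2 libraries no exact permutation test can reach 0.05, so p-values come from the fit across genes. The GC and length trend was removed with natural splines of 5 degrees of freedom, fitted to each library's deviation from the gene mean. Lengths, GC and positions are from GENCODE release 44, and coding sequences were aligned with Biopython. Alternatives were pseudocounts of 0.1 and 10, no filter or a mean of 50, 3 other scalings, eBayes without trend, a replicate block, a fold minimum of 0.58 (log2), removal of each library, and, for A485, edgeR 4.0.16 and DESeq2 1.42.0.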

Additional observations from a re-analysis of the deposited data

How the results depend on the processing

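With pyruvate, the 9 enzymes kept their direction and passed the test under the other pseudocounts, filters, recomputed size factors, the replicate block and the removal of each library (9 of 9 passed each time, 5 to 8 called). CS turned to 0.029 with equal library totals and 0.067 with quantile normalization, and missed the threshold without the eBayes trend (adjusted p = 0.0563). The count of called enzymes was 3 with equal totals (all higher), 3 with quantile normalization, and 2 with the GC and length trend removed, with and without the block, where IDH3G (0.0048) and SUCLA2 (-0.035) turned and IDH3B (-0.045) no longer passed. All genes called fell from 6503 to 3440 (3472 with the block and the trend removed).

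With A485, the reported counts over all genes were 2032 past the test and 1667 called (532 higher, 1135 lower). Equal totals gave 3 enzymes past the test, 3868 genes past it and 2585 called (1670 higher, 915 lower), and turned CS (0.38), IDH3G (0.21), SUCLG1 (0.18), FH (0.14) and MDH2 (0.090). Quantile normalization turned CS (0.29) and MDH2 (0.034), edgeR turned CS (0.0062), and the GC and length correction turned CS (0.15, also with the replicate block). Past the test were 840 genes without the eBayes trend (840 called), 3433 by DESeq2, 3846 with the replicate block, and 4285 with the block and the trend removed, where 1 enzyme passed (IDH3A, 0.58, adjusted p = 0.0496). Without 1 library, 229 to 1288 genes passed and 229 to 1284 were called, the fewest without A485 replicate 1, and CS ranged from -0.18 to 0.16 and IDH3B from -0.030 to 0.12.

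With MS-275, equal totals turned FH (-0.072) and quantile normalization turned IDH3A (0.064). With the replicate block 0 enzymes, 6245 genes past the test and 2183 called were counted, and with the block and the trend removed 2 enzymes (IDH3B, -0.34, adjusted p = 0.0196, and IDH3G, -0.31, adjusted p = 0.0475), 6106 genes and 2028 called. In the 4 lists around the cycle no gene passed with MS-275 without the block. With the block, where 6245 of 15883 genes passed, 2 of 8 other cycle genes and 5 of 13 pyruvate entry genes passed, all higher. Of 15 parallel genes 3 passed higher and 5 lower, and of 18 genes of mitochondrial content 4 passed higher and 3 lower. PDK1 (adjusted p = 8.94e-06 in limma with the block), PDK3 (4.33e-05) and TIMM44 (9.03e-06) were among them. Without 1 library, 33 to 444 genes passed and as many were called, and the ranges were -0.31 to 0.21 for CS, -0.064 to 0.037 for IDH3A, -0.75 to 0.17 for IDH3B, -0.64 to 0.13 for IDH3G, -0.59 to 0.25 for SUCLA2, -0.28 to 0.68 for SUCLG1, -0.036 to 0.18 for FH and -0.073 to 0.46 for MDH2. The lone library of a group was then assumed to vary like the other group. The causes of these shifts were not tested.

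Deviations of same-numbered libraries correlated at 0.32 (A485), 0.73 (MS-275) and 0.0020 (pyruvate) across genes. With 2 pairs and no label that ties them, the numbers are not taken as pairing. Neither edgeR nor DESeq2 was run on the MS-275 or pyruvate libraries. Undoing the scaling factors gave whole numbers there too, but a separate check of units did not accept them as reads for all of these libraries. With 2 libraries a group, differences under about the interval widths given in the report could not be detected.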

Other observations

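In mouse muscle, 2 of the 9 enzymes, Cs and Ogdh, were listed in the tables, and the other 7 were not analysed here. Ogdh was at 2401 and 2295 normalized reads in the untreated muscle of the MS-275 experiment (Control4) and at 611 and 1029 in muscle labelled MS-275, a log2 difference of -1.56 ± 0.31 (SE, limma, adjusted p = 0.0257), lower in both treated libraries. In that comparison 16.2% of 9494 genes were called. This value rests on the deposited scaling. The listed values summed to 16121300 and 15308300 in Control4 and to 6693620 and 9768110 in muscle labelled MS-275. The Ogdh difference with equal totals was not tested. Mitochondrially encoded transcripts made up 39.0% and 30.8% of the values in Control4 and 22.0% and 21.9% in muscle labelled MS-275, and their part in the Ogdh value was not tested. Cs was at 109 and 122 in Control4 and at 95.1 and 120 with MS-275 (log2 -0.11, adjusted p = 0.830).

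In the muscle experiment labelled NALA, Ogdh was at 4068 and 3931 in Control5 and at 3915 and 3673 with NALA (log2 -0.08, adjusted p = 0.382), and Cs was at 174 and 176 and at 156 and 140 (log2 -0.24, adjusted p = 0.342). In IMR90 cells OGDH was lower with MS-275 in replicate 1 (log2 -0.58) and not in replicate 2 (0.06). Whether the response of this gene to MS-275 differs between the human cells and the mouse muscle was not tested.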
